A study of Mus musculus with 6 samples.

Results

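The 9 genes described here, Bst2, Rsad2, Mx1, Mx2, Ifitm2, Ifitm3, Samhd1, Rtp4 and Rnf213, encode antiviral restriction factors, proteins that block a step of viral infection inside the cell. They were taken by name and kept where their deposited value was not 0, which held for all 9, of 26562 gene symbols with such a value and 47593 in the tables. The lowest value among them was that of Mx1, at 5.11 on the log2 scale, so no gene stood just inside that limit, and none of the 9 was outside it. The genes were put together with the outcome of this comparison known, so the calls given for them describe them and are no independent support.

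RNA-seq was made from primary hippocampal neurons of wild-type (WT) mice, cultured in Neurobasal with B27 and GlutaMAX. On culture day 10 the neurons received 6 µg/mL of apolipoprotein E (apoE) particles for 24 h, which came from microglia in 3 samples and from astrocytes in the other 3. Strain, age and sex of the mice are not given in the labels, and untreated neurons are not analysed here, so each direction is microglial against astrocytic apoE. No label says whether samples of 1 treatment differ in culture or animal, so p-values measure only the spread between samples, which may be technical.

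Restriction factors form the effector end of the interferon response. Type I interferon binds the receptor IFNAR, the kinases JAK1 and TYK2 become active, and the transcription factors STAT2 and IRF9 then act at interferon-stimulated response elements (ISREs) in the promoters of antiviral genes. In the brain neurons, astrocytes and microglia can all respond to interferon in this way. IFITM proteins hinder the fusion of viruses with endosomal membranes, MX GTPases, viperin and SAMHD1 act on replication, and BST2 holds budding virions at the cell surface.

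The values are logarithms to base 2 on a scale common to the 6 libraries, and the depth of sequencing is not known from them. They have the properties of a regularized logarithm, which draws weakly expressed genes towards their own mean. Fold changes of weak genes such as Mx1 are thus understated, and SDs and SEs at such levels are too small. At higher levels too, the median SD was below that expected if 2^value were a count. It was 0.034 against 0.121 at values of 6 to 8, and 0.036 against 0.062 at 8 to 10. SEs and p-values may be too small there as well, for example those of Mx2, Rsad2 and Samhd1. Of 15055 genes tested with limma, 3742 (24.9%) were called at an adjusted p under 0.05, 1962 (13%) of them higher with microglial apoE and 1780 (11.8%) lower. The split between higher and lower calls moved with the scaling: scaling all libraries to 1 total of 2^value gave 2516 higher against 1318 lower, and centring each library on its median gave 1478 higher against 2765 lower. These scalings shifted the log2 fold changes of all genes by 0.01 and -0.02, in the order named.

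The promoter windows are shown because most of these genes moved together and an ISRE is the shared element known from textbook genes of this class. RefSeq windows from 250 bases before to 50 bases after the gene start (GRCm38.p6) were at hand for 6 of the 9 genes, Bst2, Ifitm2, Ifitm3, Rnf213, Rsad2 and Samhd1. The ISRE core, here GAAA followed by any 2 bases and a second GAAA and searched on both strands, was found in 4 of these windows, in Bst2, Ifitm2, Ifitm3 and Rsad2, and in 3.44% of all 32851 windows. Each match is printed with 10 bases on either side, 5′ to 3′ along the gene's strand, with the match in capitals; all 4 genes lie on the minus strand, and the matches of Bst2 overlap each other.
Bst2, from base -130 (chr8:71537583-71537612): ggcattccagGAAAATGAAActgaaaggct
Bst2, from base -124 (chr8:71537577-71537606): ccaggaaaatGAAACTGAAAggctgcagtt
Ifitm3, from base 2 (chr7:141010723-141010752): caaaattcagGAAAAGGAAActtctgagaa
Ifitm3, from base 19 (chr7:141010706-141010735): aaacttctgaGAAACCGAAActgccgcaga
Ifitm2, from base -46 (chr7:140955988-140956017): ccaccaacagGAAAAGGAAAttgctagaga
Rsad2, from base -120 (chr12:26456553-26456582): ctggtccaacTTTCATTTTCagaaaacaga
Positions give the first base of the match, counted from 0 at the RefSeq gene start. The match of Rsad2 is on the opposite strand, and the others are on the gene's own strand. The windows of Rnf213 and Samhd1 held no match to the ISRE core. That of Rnf213 (chr11:119389849-119390148) lies wholly before the GENCODE start of the gene, 119393100, so the sequence around that start was not searched. A match is a run of letters and does not show that a factor binds there.

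Among the restriction factors, 7 of the 9 genes rose with microglial apoE and 0 fell (limma, adjusted p from 4.21e-25 to 1.02e-12 for those that rose), against 13% of all genes tested called higher. Bst2, Rnf213, Rsad2, Rtp4 and Ifitm3 were 2.96-fold to 4.16-fold higher, Mx2 1.72-fold and Mx1 1.24-fold higher, and Ifitm2 and Samhd1 did not pass the test. The median log2 fold change was 1.56, against -0.0006 over all genes tested, and 5 of the 9 reached a log2 fold change of 1, as did 32 of the 15055 genes tested. All 9 genes passed the filter on low values in every library, and in all 9 the 3 microglial apoE libraries lay above the 3 astrocytic apoE libraries, which held for 20.1% of the genes tested.

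**Figure D1:**
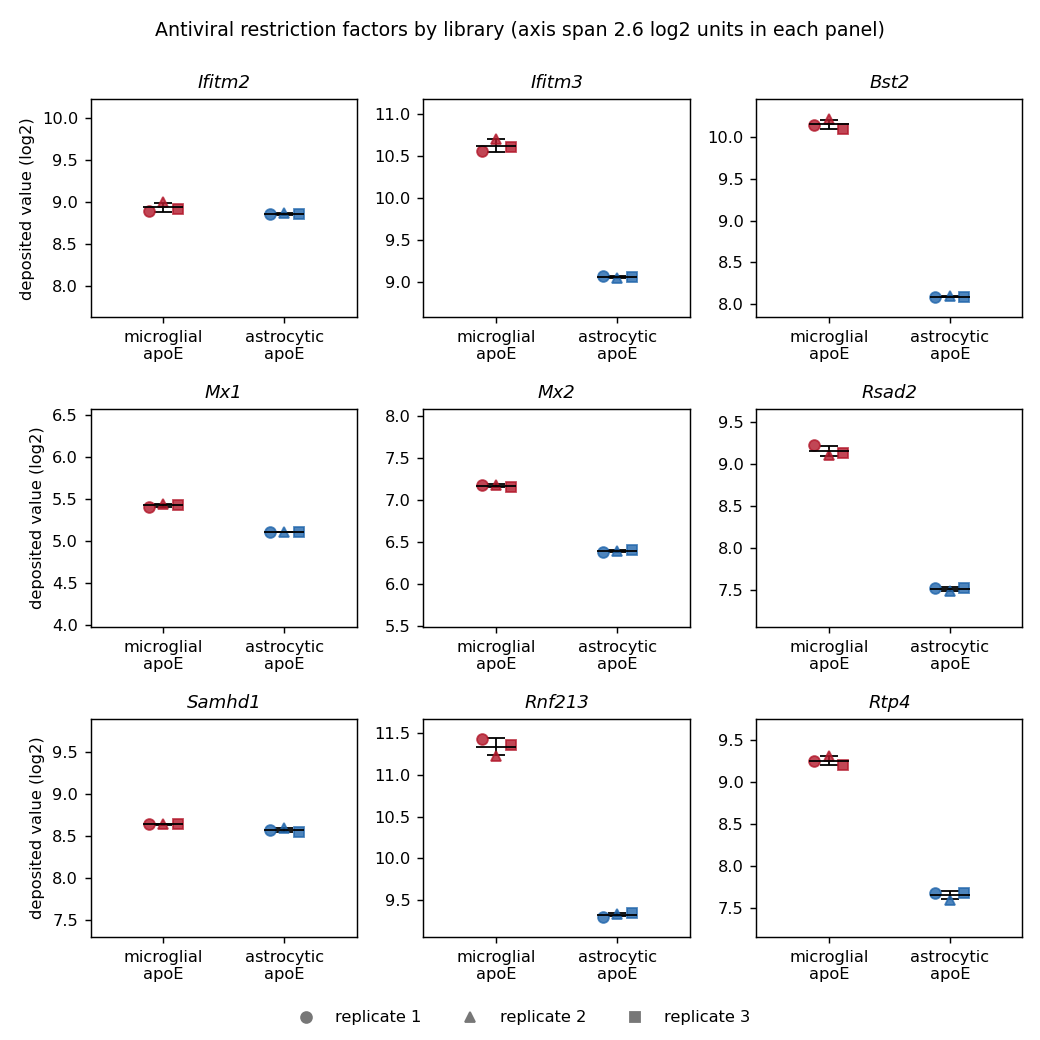
Deposited log2 value (vertical axis) of each restriction factor in the 3 microglial apoE libraries (red) and the 3 astrocytic apoE libraries (blue); symbols mark the replicate, horizontal lines the mean and error bars the SD (n = 3). Every panel spans 2.6 log2 units, so the steps can be compared by eye: 4.16-fold for Bst2, against 1.06-fold for Ifitm2 and 1.05-fold for Samhd1.

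The IFITM proteins act at virus entry. Ifitm3, the family member best known for keeping influenza virus in endosomes (protein-coding, GRCm38 chromosome 7, 141009586 to 141010770), stood at 10.56, 10.70 and 10.60 in the microglial apoE libraries, against 9.07, 9.04 and 9.06 with astrocytic apoE. The groups were far apart, with a gap of 1.49 between the lowest microglial and the highest astrocytic library. It rose 2.96-fold (log2 fold change 1.56 ± 0.033 SE, limma adjusted p = 2.41e-22).

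Ifitm2, its close relative in the same gene cluster (protein-coding, chromosome 7, 140954837 to 140955987), stood at 8.897, 8.997 and 8.916 with microglial apoE, against 8.853, 8.871 and 8.850 with astrocytic apoE. All 3 microglial libraries were above the astrocytic ones, by a gap of 0.026. The log2 fold change was 0.08 ± 0.032 SE, with a 95% confidence interval of 0.01 to 0.14 (limma adjusted p = 0.0739). It passed when libraries were scaled to 1 total (0.09, limma adjusted p = 0.0375), and without microglial replicate 2 its value was 0.05 (limma adjusted p = 0.317); over all alternatives the adjusted p ran from 0.0375 to 0.317.

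The distance between Ifitm3 and Ifitm2 also differed between the groups, as their fold changes imply. Ifitm3 exceeded Ifitm2 by 1.66, 1.70 and 1.68 on the log2 scale within the microglial apoE libraries, against 0.21, 0.17 and 0.21 within the astrocytic apoE libraries. The means of that distance were 1.68 ± 0.022 with microglial and 0.198 ± 0.022 with astrocytic apoE (SD, n = 3). The starts of Ifitm2 and Ifitm3 lie 54783 bases apart, and both carry an ISRE core in the windows printed above.

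The counting of Ifitm2 is less certain than that of the other genes. Of its 655 exonic bases, 268 (40.9%) also belong to Gm45717, an overlapping protein-coding locus on the same strand with no entry in these tables. Of its 100-base stretches, 34.9% occur in transcripts of another gene, but 0 occur in Ifitm3. Ifitm3 had 0 of its 579 distinct stretches of 100 bases in any other gene, and at 50 bases it shared 20 with Ifitm2.

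BST2, or tetherin, acts at the last step and links budding virions to the plasma membrane. Bst2 (protein-coding, chromosome 8, 71534255 to 71537456) stood at 10.14, 10.21 and 10.09 with microglial apoE, against 8.09, 8.10 and 8.09 with astrocytic apoE. The groups were 1.99 apart. Bst2 rose 4.16-fold (2.06 ± 0.032 SE on the log2 scale, limma adjusted p = 4.21e-25), the highest fold of the 9 and rank 6 among the 15055 genes tested, and none of its 100-base stretches, 0 of 822, occurs in another gene.

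Viperin, the product of Rsad2, is a radical SAM enzyme that turns CTP into a chain terminator of viral RNA synthesis. Rsad2 (protein-coding, chromosome 12, 26442746 to 26456452) stood at 9.22, 9.10 and 9.13 with microglial apoE, against 7.52, 7.49 and 7.52 with astrocytic apoE. The groups were separated by 1.58. It rose 3.12-fold (1.64 ± 0.033 SE, adjusted p = 9.01e-23).

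The MX proteins are dynamin-like GTPases that trap viral nucleoproteins, in mouse MX1 in the nucleus and MX2 in the cytoplasm. Mx2 (chromosome 16, 97535308 to 97560900) stood at 7.17, 7.18 and 7.15 with microglial apoE, against 6.381, 6.385 and 6.405 with astrocytic apoE. The libraries of each group lay close together, 0.75 apart from the other group. Mx2 rose 1.72-fold (0.78 ± 0.026 SE, adjusted p = 4.22e-18). GENCODE M21 labels Mx2 a polymorphic pseudogene, one that is intact in some strains and disrupted in the reference strain. Its RNA thus does not show that a working protein was made. Nor does that of Mx1, although labelled protein-coding, since the strain of these mice is not given.

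Mx1 (protein-coding, chromosome 16, 97447035 to 97462907) was the weakest of the 9. It stood at 5.41, 5.43 and 5.43 with microglial apoE, and at 5.11 in each of the 3 astrocytic apoE libraries. The groups did not overlap, with a gap of 0.30. The astrocytic values lay within 0.0011 of each other, and of 1081 tested genes with a mean of 5 to 6, Mx1 alone had so small an SD with astrocytic apoE (1 gene). It rose 1.24-fold (0.315 ± 0.019 SE, adjusted p = 1.02e-12), a value that the shrinkage of weak genes makes a low estimate, and it was not tested when the filter on low values was set at 50 (as 2^value).

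Mx2 exceeded Mx1 by 1.766, 1.748 and 1.725 on the log2 scale with microglial apoE, against 1.274, 1.278 and 1.297 with astrocytic apoE, so the groups did not overlap. Their starts lie 72401 bases apart, and 41 of 4415 distinct 100-base stretches of Mx1 also occur in Mx2 (0.929%). Few reads of that length would thus fit both genes. At 50 bases 159 of 4115 distinct stretches of Mx1 also occur in Mx2.

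SAMHD1 lowers the pool of deoxynucleotides (dNTPs) that reverse transcriptases need, and it is active in cells that do not divide. Samhd1 (protein-coding, chromosome 2, 157097533 to 157135265) stood at 8.642, 8.643 and 8.653 with microglial apoE, against 8.576, 8.598 and 8.548 with astrocytic apoE. The libraries did not overlap, with a gap of 0.044, yet the step was small. The log2 fold change was 0.07 ± 0.030 SE, with a 95% confidence interval of 0.01 to 0.13 (limma adjusted p = 0.0815). It passed when libraries were scaled to 1 total (0.09, limma adjusted p = 0.0387) and in limma without the trend and robust options (adjusted p = 0.0364); over all alternatives the adjusted p ran from 0.0364 to 0.19.

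RNF213 is a very large ubiquitin ligase with an ATPase core that acts against viruses and bacteria, and its human gene is the main susceptibility gene of moyamoya disease, a disorder of brain arteries. Rnf213 (protein-coding, chromosome 11, 119393100 to 119487418) stood at 11.42, 11.22 and 11.36 with microglial apoE, against 9.31, 9.34 and 9.35 with astrocytic apoE. The groups were 1.87 apart. Its SD of 0.10 with microglial apoE was the highest among the 9, from a low value in replicate 2. It rose 4.01-fold (2.002 ± 0.040 SE, adjusted p = 4.68e-17), and a transcript on the opposite strand that has no entry in these tables covers 8.74% of its exonic bases.

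RTP4 helps receptors reach the cell surface, opioid receptors among them, and restrains viruses by binding their RNA. Rtp4 (protein-coding, chromosome 16, 23520291 to 23614222) stood at 9.25, 9.31 and 9.20 with microglial apoE, against 7.68, 7.59 and 7.68 with astrocytic apoE. The groups were 1.52 apart. It rose 3.04-fold (1.602 ± 0.034 SE, adjusted p = 3.24e-22). A transcript on its own strand, also without an entry in these tables, covers 13.9% of its exonic bases.

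Levels of different genes were compared per kilobase of exonic sequence, as log2 of 2^value per kb. The length took in all annotated exons of a gene, and which transcripts were made was not tested. Overlap of libraries does not measure the error from that length, so small steps in the order are uncertain. With microglial apoE the order was Ifitm3 (11.18), Bst2 (10.29), Ifitm2 (9.55), Rtp4 (8.16), Rnf213 (7.25), Rsad2 (7.03), Samhd1 (5.45), Mx2 (5.31) and Mx1 (3.50), and no neighbours in that order had overlapping libraries. With astrocytic apoE it was Ifitm3 (9.62), Ifitm2 (9.47), Bst2 (8.24), Rtp4 (6.56), Rsad2 (5.39), Samhd1 (5.38), Rnf213 (5.25), Mx2 (4.54) and Mx1 (3.19), where the libraries of Rsad2 and Samhd1 overlapped. Bst2 and Rnf213 thus stood at places 2 and 5 with microglial apoE, against places 3 and 7 with astrocytic apoE. Both IFITM genes were high per kilobase in either group, and Mx1 was the lowest in both.

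Within the groups the genes did not follow a single library. Microglial replicate 2 held the highest value for 6 of the 9 genes, but the lowest for Rsad2 and Rnf213. Astrocytic replicate 3 held the highest value for 5 and the lowest for 3. These differences between libraries of a group were small beside those between groups for the 5 genes with the highest fold changes: their SDs were 0.10 or less, against log2 fold changes of 1.56 or more.

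The 5 other genes whose profile over the 6 libraries lay closest to the median profile of the 9 were Ifit3b, Irf7, Gm4951, Lgals3bp and Irf9. Likeness was the root mean square distance of values centred on the astrocytic mean, which was 0.019 for Ifit3b and 0.0545 or less for the others. Their log2 fold changes were 1.56, 1.58, 1.54, 1.502 and 1.51 in the order named, beside 1.56 for Ifitm3. Ifit3b has near-identical copies, so its value is uncertain.

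Restriction factors outside these 9 were read from a list of 42, of which 41 had a symbol in the tables and 35 passed the filter. Of these, 24 rose with microglial apoE and 4 fell, against 13% and 11.8% of all genes tested, with a median log2 fold change of 0.18. Without astrocytic replicate 1 or 2 only 2 fell. The list was written with the interferon response of these cells known, so its counts are a description.

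Lgals3bp, a secreted scavenger protein, rose 2.83-fold (10.06 ± 0.02 with microglial and 8.56 ± 0.05 with astrocytic apoE, SD, n = 3). Trim30a, a mouse relative of the capsid-binding factor TRIM5, rose 2.67-fold (1.42 ± 0.029 SE), and Zc3hav1, the zinc finger protein ZAP that marks CpG-rich viral RNA for decay, rose 2.17-fold (1.11 ± 0.029 SE). Trim21, which targets antibody-coated virus, rose 1.89-fold (0.92 ± 0.030 SE). The 4 that fell did so by less: Cnp, a myelin enzyme (-0.20 ± 0.030 SE), and the chromatin proteins Hltf (-0.13 ± 0.033 SE), Atrx (-0.12 ± 0.032 SE) and Smc6 (-0.10 ± 0.030 SE).

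Most of these other factors were grouped by the step they act on, a grouping made with the values known. Some were in no group, Lgals3bp (1.502) and Cnp (-0.20) among them. Trim28, which rose (0.18), was counted with the nuclear and chromatin factors. The 4 other TRIM genes tested rose (0.52 to 1.42), and all 3 Schlafen genes tested rose (0.16 to 0.39). Of 12 factors that act on RNA or other nucleic acid 10 rose and 0 fell. Of 8 nuclear and chromatin factors 3 rose and 3 fell. Among all genes tested 13% rose and 11.8% fell. Of 4 tested factors of entry and membranes, 1 rose, Serinc3 (0.18), and the log2 fold changes ran from -0.05 to 0.18, beside 1.56 for Ifitm3, 2.06 for Bst2 and 0.08 for Ifitm2 among the 9. Trex1, a nuclease listed at 0, lies with all its exonic bases inside Atrip, so its reads may not have been assigned to it.

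**Figure D2:**
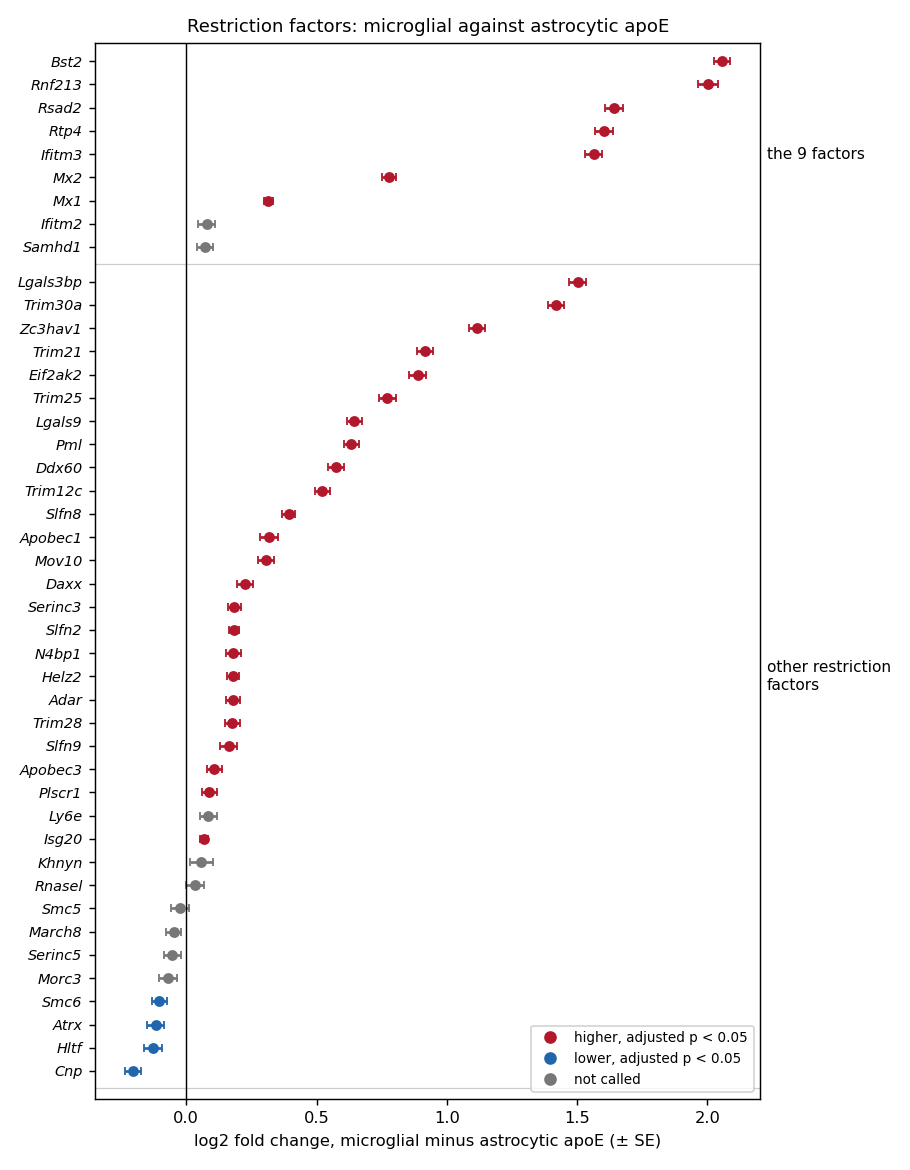
Log2 fold change, microglial minus astrocytic apoE (horizontal axis, error bars SE), of the 9 restriction factors (top) and of the 35 tested factors of the wider list (below), coloured by the limma call. Among the 9, Bst2 and Rnf213 lie near 2 and Ifitm2 and Samhd1 near 0, and the wider list runs from 1.502 for Lgals3bp to -0.20 for Cnp.

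The nearest relatives of the 9 genes were mostly weak or little changed. Ifitm1 stood at 2.32 ± 0.01 with microglial and 2.32 ± 0.01 with astrocytic apoE (SD, n = 3), below the filter, as did Ifitm6 at 1.02 ± 0.01 and 1.02 ± 0.004, while Ifitm5, Ifitm7, Rtp1 and Rtp2 were also below it and Rtp3 was listed at 0. Over all genes tested 13% were called higher and 11.8% lower. Of 5 relatives tested 1 rose, the neuronal dynamin Dnm1 (0.10 ± 0.027 SE), and 3 fell, Dnm3 (-0.10 ± 0.033 SE), the mitochondrial fission dynamin Dnm1l (-0.07 ± 0.027 SE) and Ifitm10 (-0.06 ± 0.018 SE). Their adjusted p (limma) ran from 0.00561 for Dnm1 to 0.0458 for Dnm1l, and the calls depended on the scaling and on single libraries. Only 1 call was left when libraries were scaled to 1 total. The same held without astrocytic replicate 1, without astrocytic replicate 2 or without microglial replicate 3. Without microglial replicate 1 or 2, 2 calls were left.

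Of 12 tested genes that work with the 9 or control them, 3 rose and 2 fell, against 13% and 11.8% of all genes tested, so 5 calls do not set these genes apart. The calls came to 3 in all without microglial replicate 1, 2 or 3 or astrocytic replicate 1 or 2, and with the replicate block. Cmpk2, a mitochondrial kinase that makes the CTP used by viperin, rose 1.17-fold (0.23 ± 0.034 SE), and Mms19 (0.08 ± 0.028 SE, adjusted p = 0.0392) and Ciao1 (0.08 ± 0.028 SE, adjusted p = 0.0494), which insert iron-sulfur clusters, rose slightly. The cyclin Ccna2 (-0.58 ± 0.030 SE) and the kinase Cdk1 (-0.53 ± 0.030 SE), which phosphorylate SAMHD1 in dividing cells, fell. All 6 markers of dividing cells, a list that holds Cdk1 itself, fell in the same libraries.

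Of 12 genes of dNTP metabolism, the substrate pool of SAMHD1, 4 fell and 0 rose, against 11.8% and 13% of all genes tested. Rrm1 (-0.36 ± 0.033 SE), Rrm2 (-0.28 ± 0.038 SE) and Rrm2b (-0.10 ± 0.029 SE) encode subunits of ribonucleotide reductase, and Tk1 (-0.20 ± 0.024 SE) a thymidine kinase. Rrm1, Rrm2 and Tk1 are used in S phase, and the markers of dividing cells had a summed 2^value of 1073 to 1084 in microglial apoE libraries, against 1715 to 1782 in astrocytic apoE libraries; their part in these falls was not tested.

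Upstream of the restriction factors, interferon genes were listed at 0 or at the lowest value, receptors and kinases did not pass the test, and the transcription factors Irf7, Irf9 and Stat2 rose. Of 17 interferon genes 15 were listed at 0 in every library, Ifnb1, Ifng and the Ifna genes among them, and the other 2, Ifne and Ifnz, lay at the lowest value of the tables. At this unknown depth that does not show that the genes were silent.

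Of 5 interferon receptor genes tested 0 passed in limma, 0 also without the trend and robust options, and 0 at an unadjusted p under 0.05. Ifnar1 had 10.17 ± 0.04 with microglial and 10.21 ± 0.03 with astrocytic apoE (SD, n = 3), with a 95% confidence interval of -0.10 to 0.02 for the log2 fold change. Ifngr2 had 11.08 ± 0.02 and 11.12 ± 0.01 in the same order, with an interval of -0.10 to 0.01. None of the 3 kinases passed either, 0 in limma, 0 without the trend and robust options and 0 at an unadjusted p under 0.05. Jak1 had an interval of -0.10 to 0.01 and Jak2 of -0.01 to 0.10. Among all genes tested 24.9% were called in either direction. With so few receptors and kinases, 0 calls do not set these genes apart.

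Among transcription factors of the pathway, Irf7 rose 2.997-fold (1.58 ± 0.031 SE), Irf9 2.85-fold (1.51 ± 0.030 SE) and Stat2 2.61-fold (1.38 ± 0.034 SE), beside 1.24-fold to 4.16-fold among the restriction factors that rose. Irf1 rose by less (0.24 ± 0.030 SE), and Irf3 did not pass (0.02). Of 3 feedback inhibitors 2 rose, against 13% of all genes tested. Usp18, which blocks IFNAR2 signalling and removes ISG15, had a log2 fold change of 2.01 ± 0.033 SE. Socs1 had one of 0.22 ± 0.026 SE.

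**Figure D3:**
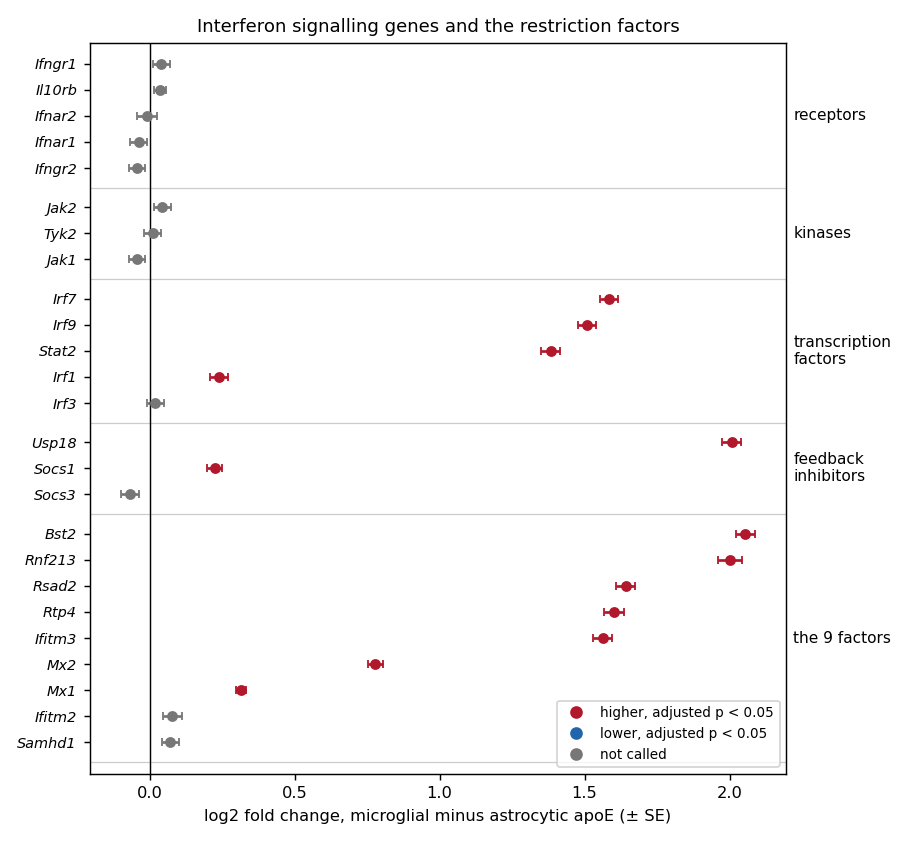
Log2 fold change, microglial minus astrocytic apoE (horizontal axis, error bars SE), of tested interferon receptors, kinases, transcription factors and feedback inhibitors and of the 9 restriction factors, coloured by the limma call. The receptors and kinases lie within 0.05 of 0, whereas Irf7, Irf9, Stat2 and Usp18 lie between 1.38 and 2.01.

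Genes beside the restriction factors had small log2 fold changes. Of the nearest protein-coding neighbours on either side, 8 were tested next to a restriction factor, and their log2 fold changes ran from -0.15 to 0.23. The highest was that of Cmpk2, whose start lies 12752 bases from that of Rsad2. Rsad2 minus Cmpk2 was 0.06, -0.06 and 0.04 on the log2 scale with microglial apoE, against -1.42, -1.47 and -1.32 with astrocytic apoE, and the groups did not overlap.

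Masp1, a serine protease of the complement pathway that starts 524 bases from the annotated start of Rtp4, rose (log2 fold change 0.18 ± 0.031 SE), as did Mvb12a, a sorting complex subunit next to Bst2 (0.16 ± 0.032 SE). Rnf144a, on the other side of Rsad2, fell (-0.12 ± 0.029 SE), as did the retinoblastoma relative Rbl1 beside Samhd1 (-0.15 ± 0.027 SE). Slc26a11 and Endov beside Rnf213 (0.05 ± 0.026 and -0.05 ± 0.032 SE) and Bace2 beside Mx1 (0.01 ± 0.028 SE) did not pass. Fam3b, between Mx1 and Mx2, and Tldc2 beside Samhd1 were listed at 0, and Tmprss2 beside Mx2 stood at 1.56 ± 0.01 with microglial and 1.55 ± 0.01 with astrocytic apoE (SD, n = 3).

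**Figure D4:**
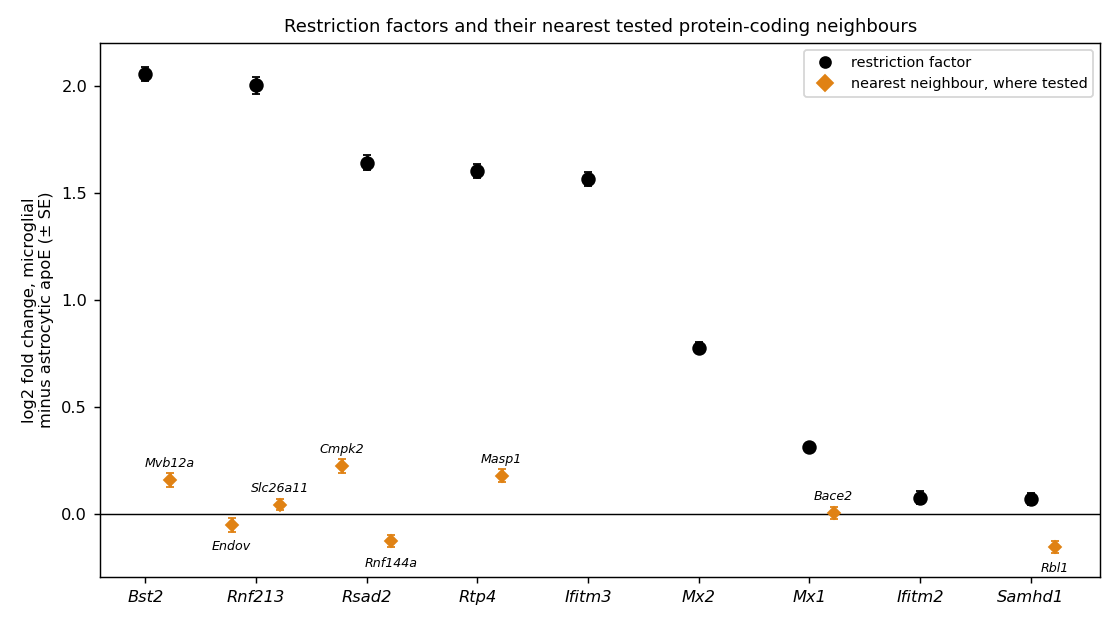
Log2 fold change, microglial minus astrocytic apoE (vertical axis, error bars SE), of each restriction factor (black circles) and of its nearest protein-coding neighbours where tested (orange diamonds). The neighbours lie between -0.15 and 0.23, also beside Bst2 and Rnf213, which had log2 fold changes of 2.06 and 2.002.

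Markers show which cells the RNA could come from. Their calls, here and in the next paragraph, stand beside 13% of all genes tested called higher and 11.8% called lower. The neuronal markers were strong, for example Rbfox3 (NeuN) at 10.81 ± 0.01 with microglial and 10.89 ± 0.03 with astrocytic apoE (SD, n = 3), and of 9 such markers 2 rose and 2 fell. Astrocyte RNA was plentiful too: Gfap stood at 11.92 ± 0.02 with microglial apoE, a log2 fold change of -1.08 against astrocytic apoE, and Aqp4 at 12.87 ± 0.04 with microglial and 13.29 ± 0.05 with astrocytic apoE (SD, n = 3). Of 10 astrocyte markers 8 fell and 1 rose, and their summed 2^value was 62128 to 62692 with microglial apoE, against 73445 to 74618 with astrocytic apoE. In bulk RNA fewer cells of a type and less RNA per cell cannot be told apart, and which cells carried the transcripts of the restriction factors was not tested.

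Of 16 markers of microglia and macrophages 13 were tested, and 1 rose, C1qc (0.06 ± 0.021 SE). The summed 2^value of the 16 was 1376 to 1401 with microglial apoE, against 1332 to 1348 with astrocytic apoE. Cx3cr1 (4.77 ± 0.03 and 4.76 ± 0.03), Csf1r (4.89 ± 0.02 and 4.84 ± 0.02) and Itgam (4.38 ± 0.01 and 4.35 ± 0.01) were low with microglial and with astrocytic apoE, and P2ry12 (2.20 and 2.20) and Tmem119 (1.12 and 1.11), in the same order, were lower still. None of the 16 was at 0. Their part in the results above was not tested. Endothelial cells also express restriction factors such as Ifitm3, and of 7 endothelial markers 1 passed the filter (Kdr), with Cldn5 at -1.48 in both groups. In the oligodendrocyte lineage 1 of 8 tested markers rose and 2 fell, with Mog at 6.995 ± 0.039 with microglial and 6.990 ± 0.019 with astrocytic apoE, and of 6 tested markers of pericytes and fibroblasts 2 rose.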

How the data were processed

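Per the labels' protocols, RNA of primary neurons was sequenced by BGI on a DNBSEQ platform. GRCm38, HISAT2, featureCounts, DESeq2 and FastQC are listed, without roles, in the submitters' processing notes. The sources used here do not give versions, annotation or strand setting. The deposited tables hold a single log2 value per gene symbol and sample, made by the authors; a regularized logarithm is inferred from the values, because the same 21031 symbols stood at 0 in all 6 libraries and 0 symbols in only some of them.

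The values were tested as deposited with limma 3.58.1 (R 4.3.3, trend and robust options), microglial minus astrocytic apoE, over 15055 genes at or above log2 of 10 in 3 or more libraries. Calls took an adjusted p under 0.05 (Benjamini-Hochberg, all 15055 genes). The procedure was tested on simulated data. Errors are SDs (n = 3) or moderated SEs, and confidence intervals are limma's.

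The 9 genes and all lists were chosen with earlier results of these data known, and some results for listed genes are not reported here. Besides the 9 genes, the text names up to 4 called genes per list by smallest p and any that moved against the list. Where none was called, it names the 2 most abundant. Of the markers of cell types and dividing cells it names only the defining ones, C1qc, Kdr and Cdk1, and counts the others. Neighbours and the 5 most alike genes are also named. Further genes were named after their values were seen, among them Ciao1, Serinc3, Trim28, Trex1, Ifnb1, Ifng, Ifne, Ifnz and members of families given together. Positions, exonic bases and transcripts are from GENCODE M21 (GRCm38), 1-based; promoter windows are from RefSeq (GRCm38.p6). Alternatives were filters, scalings, pseudocounts, variance models, a replicate block and leaving out each library. Tables and figures used Python 3.11.15, pandas 2.3.3, scipy 1.17.1 and matplotlib 3.10.9.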

Additional observations from a re-analysis of the deposited data

How the results depend on the processing

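The 7 restriction factors that rose did so under every one of the 14 alternatives in which they were tested; Mx1 was not tested with the filter at 50. The median log2 fold change of the 9 was 1.52 to 1.59 when each library was left out in turn. In the wider list of restriction factors the genes that fell numbered 2 to 4 over those fits. Relatives called numbered 1 to 4, and also 1 with libraries scaled to 1 total and 2 in limma without the trend and robust options. Partners and regulators called numbered 3 to 6 over those fits, and 3 with median centring, with no filter on low values and with the replicate block. Of 1001 refitted values for 72 named genes, 931 kept direction and call, 54 lost the call, 6 gained it and 10 changed sign; the cause was not tested. Those that changed sign were Bace2 (-0.0103 with median centring, -0.0088 to 0.0192 with a library left out), Cx3cr1 (-0.0136 and -0.0074 to 0.023) and Mog (-0.0136 and -0.0082 to 0.0274). None of these was called. Ifitm2 passed when libraries were scaled to 1 total, and Samhd1 there and in limma without the trend and robust options.

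Deviations of libraries with the same number correlated at 0.039, -0.122 and -0.186, so no pairing by number was seen. With 3 libraries per group a shared culture could go unseen, and the labels do not state one. With the replicate block 1778 genes were called higher and 1609 lower, against 1962 and 1780 without it, and the calls of the 9 restriction factors did not change. Depth is unknown and limits what can be said of the weakest genes.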

Other observations

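Several further restriction factors lay below the filter and were not tested. Ch25h, which makes an antiviral oxysterol, stood at 2.86 ± 0.01 with microglial and 2.85 ± 0.01 with astrocytic apoE (SD, n = 3), with overlapping libraries. Sp100, a nuclear body protein, stood at 2.86 ± 0.01 with microglial and 2.82 ± 0.01 with astrocytic apoE, and Slfn5 at 1.93 ± 0.02 and 1.91 ± 0.003 in the same order. In both the microglial apoE libraries lay above the astrocytic ones. At such values the transformation leaves almost no spread, so the sizes of these steps cannot be read as fold changes. The delta opioid receptor gene Oprd1, whose product RTP4 helps to the cell surface, did not pass (log2 fold change 0.0032 ± 0.022 SE), and the mu opioid receptor gene Oprm1 stood at 2.49 ± 0.005 with microglial and 2.51 ± 0.002 with astrocytic apoE, below the filter.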
